A study of Mus musculus with 18 samples.

Results

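The genes of mitosis and of the G2 to M transition, 44 in number, were followed across embryonic fibroblasts treated with transforming growth factor β1 (TGF-β1). A member was taken from the array annotation by its symbol, and each was read from 1 probe set that names it alone, the brightest by mean over the 18 arrays. Such a probe set was found for 43 of the 44, and Ccnb1 was not analysed here. All 43 lay above the detection floor, the 40th percentile of each array, on all 18 arrays and were tested, among 13679 tested genes of 18194 with a probe set of their own.

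Cells pass from G2 into mitosis when Cdk1, a kinase, joins its A and B type cyclins. The spindle checkpoint then delays anaphase until each chromosome is attached. The anaphase promoting complex, switched on by Cdc20, marks securin and the B cyclins for destruction. The genes of this machinery are transcribed together late in the cell cycle, under control of the B-Myb, Foxm1 and MuvB factors, so their mRNA is abundant in dividing cultures and scarce in resting ones. TGF-β1 is known as an inhibitor of proliferation in epithelial cells, while its action on the division of fibroblasts depends on their state.

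The cells were primary mouse embryonic fibroblasts grown from 14-day embryos without head and liver, in DMEM with 10% FCS. They came from 3 wild-type embryos and 3 embryos labelled knock-out for the transcription factor NFI-C, which is encoded by Nfic. Each embryo gave 3 arrays: an untreated culture, a culture with 12.5 ng/ml TGF-β1 for 1 h, and a culture with the same dose for 10 h. All cultures, the untreated included, had first stood 4 to 6 h in DMEM with 1% AlbuMAX II and a 1% insulin, transferrin and selenium mix. The 6 groups were therefore wild type untreated, wild type at 1 h, wild type at 10 h, and the same 3 for the labelled knock-out, with 3 embryos in each. Cultures left 10 h without TGF-β1 are not among those analysed, and in any 10 h change the factor and the time in this medium cannot be told apart. The embryos of a genotype are separate animals, per the labels.

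Values are log2 signals, on which a difference of 1 is a factor of 2. Nfic itself was not told apart between the genotypes. Its group means were slightly lower in the labelled knock-out, 10.35 against 10.45 untreated, 10.56 against 10.58 at 1 h and 10.14 against 10.23 at 10 h, and none of these differences passed (limma, adjusted p of 0.973 or more). Untreated, it read 10.51, 10.36 and 10.49 in untreated wild-type embryos 1, 2 and 3, and 10.43, 9.89 and 10.72 in the labelled knock-out, where the embryos overlap. Whether this probe set lies in the deleted stretch is not given, so it does not check the labels. The fibroblast gene Col1a1 read 13.61 to 14.03 on all arrays. Other fibroblast markers were less steady. At 10 h 4 of 12 fell in the wild type and 3 in the knock-out (limma, adjusted p under 0.05), beside 18.8% and 20.7% of all genes. Pdgfra, the furthest down, averaged 8.98 untreated and 6.50 at 10 h in the wild type, and 8.24 and 5.67 in the knock-out. The endothelial markers Pecam1 and Cdh5 and the muscle regulator Myod1 lay at or near the detection floor of 4.16 to 4.25 on every array, apart from Cdh5 at 4.62 in 1 knock-out culture. Other markers were above the floor on at least 3 arrays: 4 of 8 endothelial, 4 of 10 muscle, 7 of 10 epithelial and 6 of 6 neural genes. In the wild type the muscle actin Acta1 averaged 8.61 untreated and 10.68 at 10 h, and the neural marker Nes 8.61 and 10.40. The endothelial Kdr averaged 5.32 and 5.72. These 3 were named after their values were seen. Macrophage genes were strong: Lyz2 read 11.26 to 13.68. Deviations from the group mean over all genes matched between the untreated and 10 h arrays of the same embryo in the knock-out, with correlations of 0.39, 0.34 and 0.28, and in wild-type embryo 1 at 0.49. They did not match in wild-type embryos 2 and 3, at -0.06 and -0.20, so embryo numbers of those 10 h arrays are less certain.

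Promoters of the members shared short elements that the choice of genes did not use. RefSeq promoter windows of 300 bases, 250 before and 50 after the annotated start, were at hand for 36 of the 43 members (GRCm38.p6). The cell cycle homology region, or CHR, is an element known to recruit MuvB to late cell cycle genes, and was searched as TTTGAA on both strands. It occurred in the windows of 26 members, or 72.2%, against 17.9% of all 32851 windows and 14.4% of the 10989 tested genes with a window. The CCAAT box, bound by NF-Y and searched as CCAAT on both strands, occurred in 27 members, or 75%, against 42.5% of the tested genes and 37.4% of all windows. Both elements stood together in 23 members, or 63.9%, against 5.72% of the tested genes and 6.95% of all windows. TTGGC, the core recognised by the NFI family and searched on both strands, occurred in 26 members (72.2%) against 55% of the tested genes and 46.7% of all windows. It shares its letters in part with the CCAAT box, whose reverse strand reads ATTGG, so the counts overlap. A match describes these letters only, and no binding was measured.

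The promoters of 5 members are printed, from 220 bases before to 30 bases after the start, 5′ to 3′ on the strand of the gene. Cdk1, Ccnb2 and Cdc20 are shown because their windows hold both elements. Nuf2 and Nusap1 are shown because they had the largest falls at 10 h and hold neither. Capitals mark CHR and CCAAT matches on either strand. The stretches lie at chr10:69352883-69353132 on the minus strand for Cdk1, chr9:70421525-70421774 minus for Ccnb2, chr4:118437314-118437563 minus for Cdc20, chr1:169531435-169531684 minus for Nuf2 and chr2:119618078-119618327 plus for Nusap1.
Cdk1: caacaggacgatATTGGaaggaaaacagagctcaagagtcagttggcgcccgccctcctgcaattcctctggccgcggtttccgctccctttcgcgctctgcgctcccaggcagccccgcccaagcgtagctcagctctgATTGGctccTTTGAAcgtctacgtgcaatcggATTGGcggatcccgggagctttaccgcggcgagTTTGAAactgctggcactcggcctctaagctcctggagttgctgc
Ccnb2: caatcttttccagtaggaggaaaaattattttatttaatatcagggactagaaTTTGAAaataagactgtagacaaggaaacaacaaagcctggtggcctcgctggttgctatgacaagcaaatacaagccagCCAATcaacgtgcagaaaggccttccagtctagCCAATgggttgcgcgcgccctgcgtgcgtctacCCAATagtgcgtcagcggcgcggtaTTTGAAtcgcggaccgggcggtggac
Cdc20: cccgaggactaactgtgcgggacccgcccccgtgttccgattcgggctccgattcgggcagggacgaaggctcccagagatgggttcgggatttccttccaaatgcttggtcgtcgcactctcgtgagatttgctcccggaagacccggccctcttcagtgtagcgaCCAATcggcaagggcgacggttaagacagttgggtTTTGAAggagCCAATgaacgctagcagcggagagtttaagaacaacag
Nuf2: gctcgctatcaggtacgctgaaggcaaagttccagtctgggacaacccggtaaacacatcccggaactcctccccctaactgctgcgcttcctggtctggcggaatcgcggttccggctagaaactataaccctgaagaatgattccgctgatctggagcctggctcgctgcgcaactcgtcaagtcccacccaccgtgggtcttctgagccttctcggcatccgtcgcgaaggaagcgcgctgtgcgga
Nusap1: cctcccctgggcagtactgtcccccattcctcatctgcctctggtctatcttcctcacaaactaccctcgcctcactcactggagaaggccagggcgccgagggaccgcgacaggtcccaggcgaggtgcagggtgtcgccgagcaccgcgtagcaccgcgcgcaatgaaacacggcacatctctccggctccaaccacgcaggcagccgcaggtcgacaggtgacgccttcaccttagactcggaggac
Cdk1 and Ccnb2 each hold 2 CHR and 3 CCAAT matches, and Cdc20 holds 1 and 2. In the wild type at 10 h Cdk1, Ccnb2 and Cdc20 changed by -0.57, -1.19 and -0.44. Nuf2 and Nusap1, chosen for their falls, changed by -1.97 and -1.89, so the 5 cannot show how the elements relate to the size of a fall. That relation was not tested.

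After 10 h the mitotic genes were lower in both genotypes. In the wild type 38 of the 43 members fell and none rose (limma, adjusted p under 0.05), where 18.8% of all tested genes fell. The median change over the 43 was -0.76, a level 1.69-fold lower, against 0.01 over all tested genes. The 3 wild-type values at 10 h all lay below the 3 untreated ones for 42 of 43 members, as for 23.3% of all genes, the exception being Foxm1. In the labelled knock-out 39 of 43 fell and none rose, where 20.7% of all genes fell. There the median was -0.89, or 1.85-fold lower, against -0.03 over all genes, and the groups did not overlap for 39 members, as for 25.7% of all genes. With embryo as a block, which pairs the cultures of an embryo, the wild-type calls rose from 38 to 43 and the knock-out calls from 39 to 42, all but Foxm1. The wild-type values with this block rest on the less certain numbers of embryos 2 and 3 at 10 h. The share of all genes called with this block is not given here, so the rise is not read as particular to the members. The fall was at least 2-fold in 13 called members of the wild type and 16 of the knock-out. The share of all genes that fell so far was not counted. A change at or below the member median was seen in 7.54% of all genes in the wild type and 5.29% in the knock-out. In these bulk samples fewer dividing cells and less mRNA per dividing cell cannot be told apart.

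The mean of the 43 members on each array shows the course of the whole set. In wild-type embryos 1, 2 and 3 it was 8.47, 8.34 and 8.43 untreated, 8.49, 8.37 and 8.49 at 1 h, and 7.71, 7.48 and 7.46 at 10 h. Knock-out means were 8.73, 8.09 and 8.50 untreated, 8.64, 8.19 and 8.53 at 1 h, and 7.62, 7.18 and 7.74 at 10 h. The 10 h means lay below every untreated mean in both genotypes. Within each of the 6 embryos, by the labels, all 43 members were lower at 10 h than untreated, whereas 48.1% to 54.7% of all tested genes were. In wild-type embryos 2 and 3 this rests on their less certain 10 h numbers. With those exchanged, Foxm1 would be higher at 10 h in embryo 3, at 6.84 against 6.78. The median change within an embryo ran from -0.71 in wild-type embryo 1 to -1.04 in knock-out embryo 1.

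**Figure D1:**
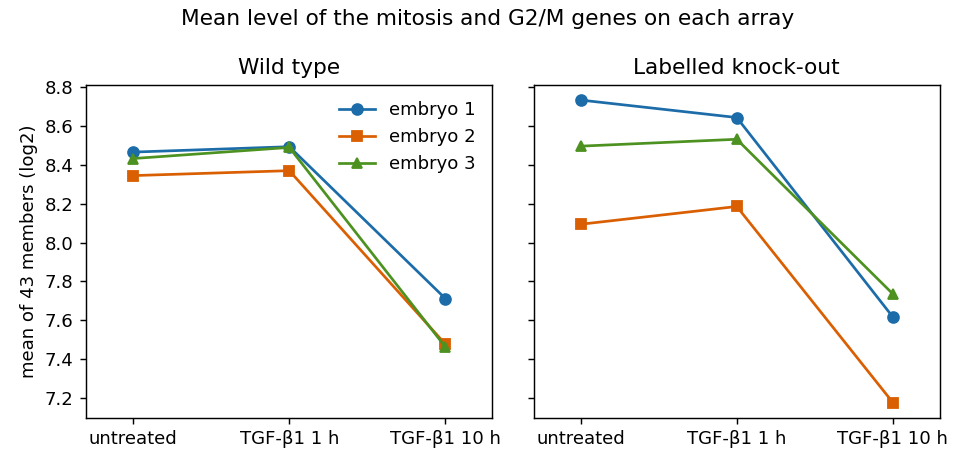
Mean log2 level of the 43 members on each of the 18 arrays, by condition, with a line for each embryo and a panel for each genotype. All lines are nearly level from untreated to 1 h and drop at 10 h, and knock-out embryo 2 is the lowest line throughout, at 8.09, 8.19 and 7.18.

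Among the regulators of mitotic entry, 9 of 10 fell in each genotype, Plk1 missing the threshold in the wild type and Foxm1 in the knock-out. Cdk1, the kinase that drives entry, read 9.62, 9.53 and 9.61 in untreated wild-type embryos and 9.32, 8.81 and 8.92 at 10 h. Labelled knock-out cells read 10.03, 9.41 and 9.57 untreated and 9.09, 8.70 and 9.21 at 10 h. All 10 h values lay below all untreated ones of the same genotype. The changes were -0.57 ± 0.17 (SE, adjusted p = 0.0187) and -0.67 ± 0.17 (adjusted p = 0.0066), and the wild-type call was lost without embryo 2 or embryo 3. Ccna2, cyclin A2, stood at 9.32, 9.30 and 9.32 in untreated wild-type cells, the closest agreement of embryos in this group of genes, and at 8.55, 8.49 and 8.31 at 10 h. It fell by 0.86 ± 0.16 (adjusted p = 5.94e-04) there and by 0.99 ± 0.16 (adjusted p = 1.69e-04) in the knock-out. Its second probe set fell by 1.14 and 1.18. Ccnb2, cyclin B2, fell by 1.19 ± 0.24 and 1.33 ± 0.24.

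Melk, a kinase of dividing cells, had the largest wild-type change of these regulators. It read 7.46, 7.56 and 7.63 untreated and 6.47, 6.17 and 6.42 at 10 h in the wild type, and 8.03, 7.18 and 7.64 against 6.77, 6.08 and 6.80 in the knock-out. The groups did not overlap in either genotype, and the changes were -1.20 ± 0.20 (adjusted p = 2.88e-04) and -1.07 ± 0.20 (adjusted p = 6.78e-04). Foxm1, a transcription factor that activates genes of G2 and mitosis, changed least of all 43. It read 7.03, 7.10 and 6.78 untreated and 6.53, 6.84 and 6.54 at 10 h in the wild type, where 10 h embryo 2 was above untreated embryo 3. The wild-type change of -0.33 ± 0.11 passed (adjusted p = 0.0307) but lost its call without embryo 1 or embryo 3, in the groups alone and after a further quantile normalization. In the knock-out it was -0.16 ± 0.11 (adjusted p = 0.298), with 6.84, 6.83 and 7.03 against 6.74, 6.72 and 6.75. Of its dimmer probe sets, in a limma fit over 29020 probe sets, 1 passed in both, at -0.49 (adjusted p = 0.0182) and -0.45 (adjusted p = 0.028), and another in neither, at -0.29 and -0.24. The kinase Plk1, which acts from centrosomes to cytokinesis, changed by -0.52 ± 0.21 in the wild type (adjusted p = 0.0669, and 0.0183 with the embryo block) and fell by 0.68 ± 0.21 in the knock-out (adjusted p = 0.0187).

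All 4 genes of the spindle checkpoint fell in both genotypes. Bub1, a checkpoint kinase at kinetochores, read 8.56, 8.60 and 8.48 untreated and 7.67, 6.57 and 7.30 at 10 h in the wild type. Bub1 in the knock-out was at 8.76, 8.22 and 8.45 against 7.10, 6.81 and 7.60. Neither genotype's groups overlapped, but the 3 wild-type embryos, close together at first, spread widely at 10 h with embryo 2 lowest. The changes were -1.37 ± 0.23 (adjusted p = 3.28e-04) and -1.31 ± 0.23 (adjusted p = 4.36e-04). Bub1b, which encodes BubR1 of the complex that inhibits Cdc20, read 8.13, 8.01 and 7.98 untreated and 7.42, 7.04 and 6.85 at 10 h in the wild type. It fell by 0.94 ± 0.21 (adjusted p = 0.00246) and, in the knock-out, by 1.11 ± 0.21 (adjusted p = 6.33e-04). Ttk, the kinase Mps1 that starts checkpoint signalling, fell by 1.18 ± 0.31 and 0.90 ± 0.31. Mad2l1, the Mad2 inhibitor of Cdc20, fell by 0.66 and 0.72.

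The chromosomal passenger complex corrects wrong attachments of the spindle. Its 4 genes all fell in the knock-out and 3 of them in the wild type. Birc5, or survivin, read 8.75, 8.83 and 8.77 untreated and 8.01, 7.83 and 7.79 at 10 h in the wild type, and 9.17, 8.46 and 8.73 against 7.99, 7.24 and 7.94 in the knock-out. The groups were apart in both, with changes of -0.91 ± 0.19 (adjusted p = 0.00199) and -1.07 ± 0.19 (adjusted p = 5.15e-04). Cdca8, or borealin, read 8.86, 8.70 and 8.76 against 8.25, 8.31 and 7.94 in the wild type. Its fall of 0.61 ± 0.19 (adjusted p = 0.0223) lost the call without any 1 of the 3 wild-type embryos, and that of 0.75 ± 0.19 in the knock-out (adjusted p = 0.00596) when its 2 groups were fitted alone. Aurkb, the kinase of the complex, was -0.60 ± 0.24 in the wild type (adjusted p = 0.0607, and 0.00498 with the embryo block) and fell by 0.99 ± 0.24 in the knock-out (adjusted p = 0.00393). Its second probe set passed in both, at -0.81 and -1.28.

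Kinetochore genes held the largest fall of the wild type. All 6 of this class were called in each genotype. Nuf2, a subunit of the Ndc80 complex that grips microtubules, read 7.72, 7.61 and 7.76 untreated and 6.30, 5.08 and 5.81 at 10 h in the wild type. Knock-out embryos had 8.04, 7.26 and 7.71 against 4.89, 6.18 and 6.76. Every 10 h value was below every untreated one, yet the 10 h embryos lay far apart, with wild-type embryo 2 and knock-out embryo 1 lowest. The changes were -1.97 ± 0.36 (adjusted p = 6.13e-04) and -1.73 ± 0.36 (adjusted p = 0.00161).

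The other subunits of the same complex moved with less scatter. Spc25 read 8.67, 8.25 and 8.63 untreated against 7.33, 7.31 and 7.03 in the wild type, and 9.01, 8.38 and 8.80 against 7.30, 6.79 and 7.39 in the knock-out. It fell by 1.29 ± 0.20 (adjusted p = 1.29e-04) and 1.57 ± 0.20 (adjusted p = 1.89e-05). Ndc80 read 7.19, 7.15 and 7.07 against 6.30, 6.00 and 6.29, and fell by 0.94 ± 0.15 in the wild type (adjusted p = 1.87e-04) and 0.60 ± 0.15 in the knock-out (adjusted p = 0.00578). Cenpf, a late kinetochore protein, fell by 1.05 and 1.30. Cenpa, the centromeric histone, fell by 0.76 and 0.80, and Cenpe, a kinetochore motor, by 0.68 and 0.82.

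Of the kinesins and spindle proteins, 6 of 7 fell in each genotype and Tpx2 missed the threshold in both. Nusap1, which bundles spindle microtubules, read 8.32, 7.90 and 8.31 untreated and 7.20, 5.10 and 6.56 at 10 h in the wild type. Its knock-out values were 8.53, 7.81 and 8.41 against 6.14, 6.21 and 7.05. The groups were apart, and wild-type embryo 2 was far below its companions at 10 h. The changes were -1.89 ± 0.40 (adjusted p = 0.0017) and -1.78 ± 0.40 (adjusted p = 0.00241), and the knock-out call was lost without its embryo 1. A second Nusap1 probe set, with a mean of 4.05 over all arrays and so at the floor, changed by 0.05 in the wild type and cannot speak to the fall.

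Ckap2, a protein of spindle poles, had the smallest p of all members in both genotypes. It read 9.09, 8.999 and 9.30 untreated and 8.23, 7.87 and 7.89 at 10 h in the wild type, and 9.58, 9.15 and 9.37 against 8.20, 7.83 and 8.29 in the knock-out. It fell by 1.13 ± 0.16 (adjusted p = 5.18e-05) and 1.26 ± 0.16 (adjusted p = 1.69e-05), without overlap. Hmmr, a spindle protein and hyaluronan receptor, read 8.59, 8.58 and 8.58 untreated and 7.94, 7.92 and 7.69 at 10 h in the wild type. It fell by 0.73 ± 0.14 (adjusted p = 7.44e-04) and, in the knock-out, by 0.93 ± 0.14 (adjusted p = 9.11e-05). Tpx2, which activates Aurora A on the spindle, was -0.41 ± 0.16 (adjusted p = 0.0637) and -0.39 ± 0.16 (adjusted p = 0.0747), and passed in both with the embryo block (adjusted p = 0.027 and 0.0323). Its probe sets disagreed in the wild type, where the next brightest was -0.59 (adjusted p = 0.0444) and a dimmer one was 0.47 higher (adjusted p = 0.0162), the only member probe set that rose.

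All 6 genes of the central spindle and cytokinesis fell in both genotypes. Ect2, which activates RhoA at the division plane, read 7.45, 7.09 and 7.27 untreated and 6.15, 6.04 and 5.95 at 10 h in the wild type. The knock-out had 7.54, 7.17 and 7.49 against 6.18, 5.57 and 6.24. The lowest untreated value was well above the highest 10 h value in each, and the changes were -1.22 ± 0.19 (adjusted p = 1.23e-04) and -1.40 ± 0.19 (adjusted p = 3.08e-05). Kif20a, a kinesin of the central spindle, read 8.85, 8.92 and 9.05 against 7.92, 7.995 and 7.68 in the wild type, and 9.27, 8.81 and 8.88 against 8.07, 7.62 and 7.998 in the knock-out. It fell by 1.07 ± 0.15 (adjusted p = 5.53e-05) and 1.09 ± 0.15 (adjusted p = 4.26e-05). The centralspindlin genes Kif23 and Racgap1 and their partners Prc1 and Anln fell by 0.71 to 0.87 in the wild type and by 0.68 to 0.84 in the knock-out.

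Mki67, the proliferation marker Ki-67 that coats mitotic chromosomes, read 9.80, 9.60 and 9.67 untreated and 8.61, 8.04 and 8.26 at 10 h in the wild type. Knock-out cells gave 9.96, 9.01 and 9.80 against 8.18, 8.11 and 8.46. It fell by 1.38 ± 0.21 (adjusted p = 1.2e-04) and 1.34 ± 0.21 (adjusted p = 1.41e-04), with no overlap although untreated knock-out embryo 2 was nearly 1 unit below its companions. Top2a, the topoisomerase that untangles chromosomes, read 10.02, 9.69 and 9.78 against 9.0003, 8.21 and 8.78, and in the knock-out 10.24, 9.30 and 9.99 against 8.81, 8.60 and 8.95. It fell by 1.17 ± 0.23 (adjusted p = 0.00112) and 1.05 ± 0.23 (adjusted p = 0.00228), and its second probe set by 0.94 and 0.78.

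Genes of anaphase promotion and chromatid separation had the smallest median change of the role classes, -0.50 in the wild type and -0.66 in the knock-out, with 2 of 4 called in each. Pttg1, or securin, which blocks separase, read 11.29, 11.09 and 11.21 untreated and 10.81, 10.44 and 10.65 at 10 h in the wild type, and 11.44, 11.09 and 11.36 against 10.53, 10.54 and 10.74 in the knock-out. The groups were apart, with changes of -0.56 ± 0.11 (adjusted p = 0.00115) and -0.69 ± 0.11 (adjusted p = 1.8e-04). Cdc20 read 10.57, 10.37 and 10.61 against 10.09, 10.29 and 9.84 in the wild type, where embryo 2 hardly moved. Its change there was -0.44 ± 0.16 (adjusted p = 0.0466), lost in 5 of 14 alternatives and -0.28 without embryo 3. In the knock-out it read 10.81, 10.35 and 10.82 against 9.94, 9.63 and 10.20, a fall of 0.74 ± 0.16 (adjusted p = 0.00227). Ube2c, the ubiquitin donor of the complex, was -0.63 ± 0.25 and -0.61 ± 0.25 (adjusted p = 0.0629 and 0.068). Espl1, separase itself, was -0.45 ± 0.24 and -0.62 ± 0.24 (adjusted p = 0.167 and 0.0574). With the embryo block both genes passed in both genotypes, Ube2c at an adjusted p of 0.0103 and 0.0111 and Espl1 at 0.0168 and 0.00224, though with a random block Espl1 missed in the wild type (0.0855).

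**Figure D2:**
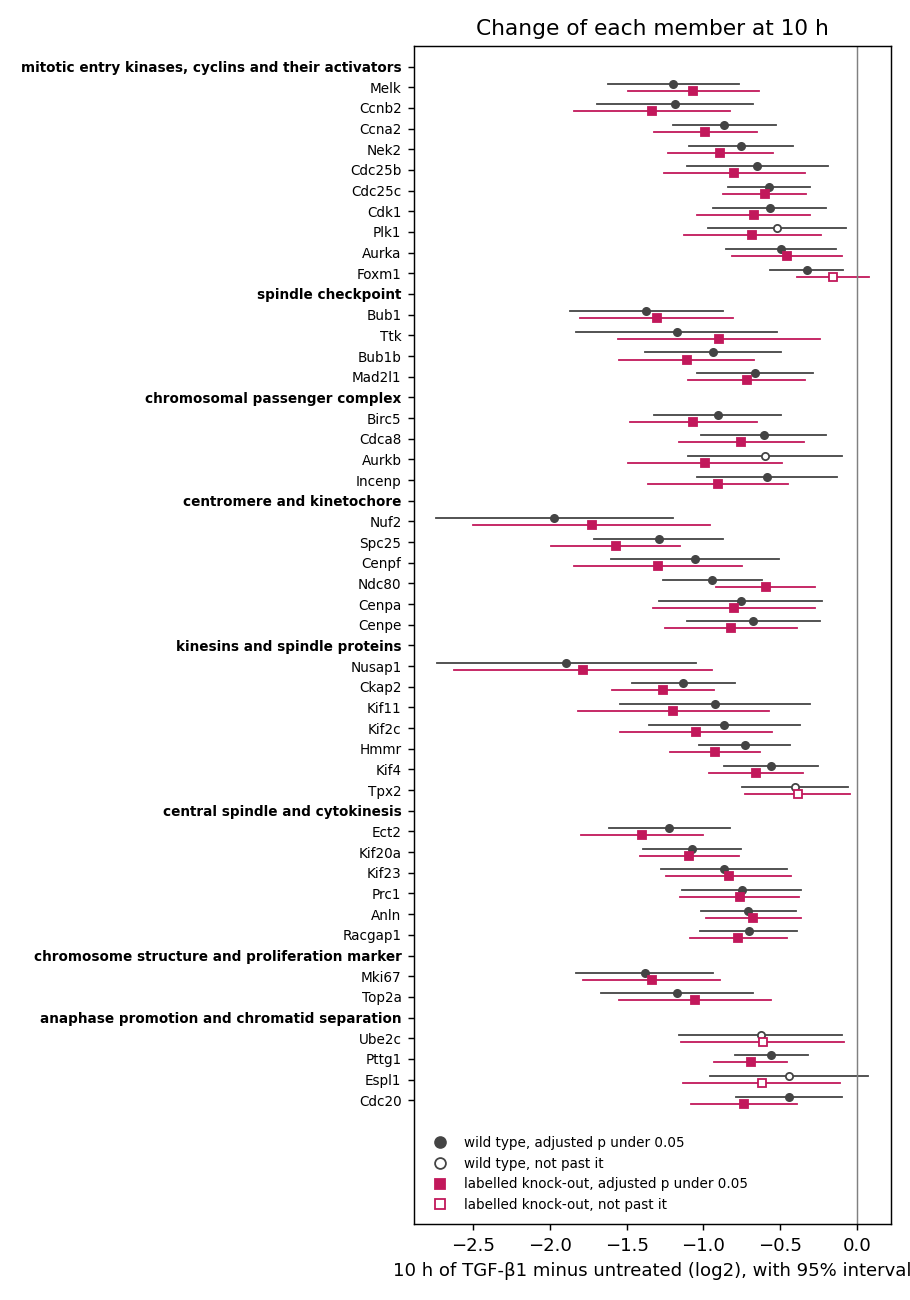
Change of each of the 43 members from untreated to 10 h of TGF-β1, in log2 units with 95% intervals, by role, for the wild type (circles) and the labelled knock-out (squares); open symbols missed an adjusted p of 0.05. Every point lies left of 0, from -0.16 for Foxm1 in the knock-out to -1.97 for Nuf2 in the wild type.

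At 1 h no change in the set was found. None of the 43 members passed in either genotype (limma), where 0.585% of all genes did in the wild type and 0.49% in the knock-out. No member had an unadjusted p under 0.05, where 940 of the 13679 tested genes did in the wild type and 512 in the knock-out. The medians were 0.03 and 0.02, and all 43 intervals of 95% stayed within 2-fold either way in both genotypes. Mki67 changed by -0.05 (95% interval -0.50 to 0.40) in the wild type and 0.05 (-0.39 to 0.50) in the knock-out. Set against the 1 h cultures, the 10 h cultures gave 39 members that fell in each genotype, where 18% of all genes fell in the wild type and 19.7% in the knock-out. The medians were -0.85 and -0.93, and 41 members of each genotype did not overlap, as for 23.5% and 25.3% of all genes. These comparisons share their 10 h arrays with those above, and the 1 h changes share the untreated arrays, so they are no separate evidence of the fall. Leaving out wild-type embryo 3 lowered the wild-type count from 38 to 23 against untreated cells and from 39 to 24 against 1 h. In all, 17 of the 38 wild-type calls at 10 h were lost when 1 of its embryos was left out, among them those of Aurka, Incenp, Cenpa, Cenpe, Cenpf, Kif11, Mad2l1, Prc1 and Ttk. Of the 39 knock-out calls 8 were lost in that way, among them those of Aurka, Plk1, Cenpa and Ttk.

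The genotypes were not told apart in any of these genes. Knock-out against wild type gave 0 members called untreated, 0 at 1 h and 0 at 10 h, and 0 for the difference in the 1 h response and 0 for that in the 10 h response (limma). All of these had a background of 0%, since no gene passed. At an unadjusted p under 0.05 the 5 counts of members were 0, 0, 1, 0 and 0. Of the 13679 tested genes 460, 846, 721, 233 and 305 were under it, so the members did not exceed this background. The median difference, knock-out minus wild type, was 0.03 untreated, 0.00 at 1 h and -0.06 at 10 h, and the 10 h responses differed by a median of -0.10. The 95% intervals of the response difference at 10 h lay within 2-fold either way for 37 of 43 members. Smaller differences were beyond the precision of 3 embryos a group: for Mki67 the interval of that difference was -0.59 to 0.68 and for Nuf2 -0.85 to 1.33.

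Embryos of the knock-out lay further apart in these genes than embryos of the wild type. The median SD over 3 embryos was 0.10 in untreated wild-type cells, 0.07 at 1 h and 0.20 at 10 h, where all tested genes had 0.13, 0.11 and 0.16. Knock-out groups had 0.36, 0.24 and 0.30, where all genes had 0.14, 0.13 and 0.14. Of the 43 members, 42, 41 and 38 of the knock-out exceeded the median SD of all genes in the 3 conditions, against 19, 17 and 29 of the wild type. The widest spreads were those of Nusap1 in the wild type at 10 h, at 1.08, and of Nuf2 in the knock-out at 10 h, at 0.96. The smallest in untreated wild-type cells was that of Hmmr at 0.01.

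**Figure D3:**
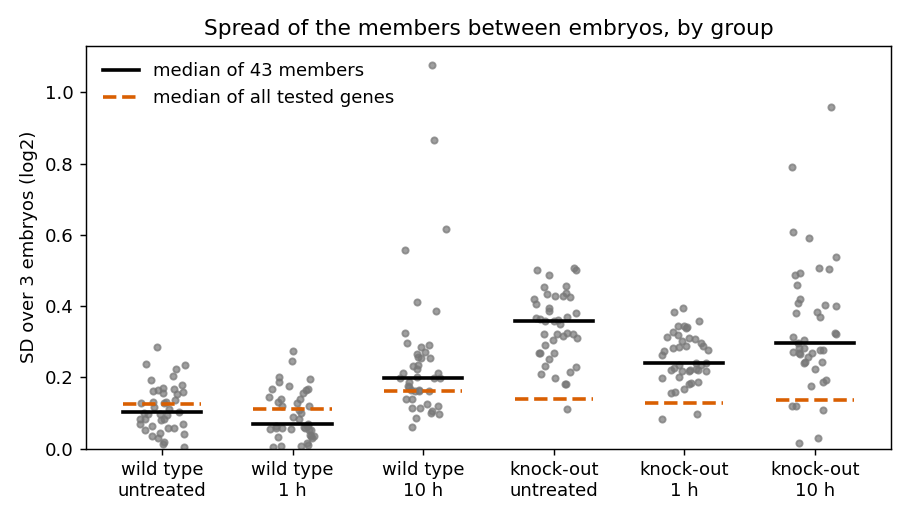
SD over the 3 embryos of a group for each of the 43 members (points), with the median of the members (solid line) and of all 13679 tested genes (dashed line), in log2 units. The member median is below the dashed line in the first 2 wild-type groups, at 0.10 and 0.07, and at least 0.24 in the 3 knock-out groups.

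In the knock-out the same embryo was lowest in nearly every member. Embryo 2 was the lowest of the 3 in 43 of 43 members untreated, 43 at 1 h and 39 at 10 h, where 38.6%, 36.4% and 36.4% of all genes were lowest in it. It was lowest in all 3 conditions for 39 members, as for 11.3% of all genes. The 4 others, Cdc25c, Nuf2, Nusap1 and Pttg1, had embryo 1 lowest at 10 h. Embryo 1 was highest in 36 members untreated and 33 at 1 h, but embryo 3 in 31 at 10 h, where those arrays were highest in 31.1%, 30.8% and 31% of all genes. Averaged over the conditions, the median deviation of the members was 0.21 in embryo 1, -0.32 in embryo 2 and 0.12 in embryo 3. In the wild type these deviations, which use the less certain 10 h numbers, were 0.07, -0.04 and -0.02. There embryo 2 was lowest in 26 members untreated and 30 at 1 h, but embryo 3 in 24 at 10 h. Those arrays were lowest in 31.2%, 33.1% and 32.3% of all genes. Deviations over all genes also correlated between wild-type and knock-out arrays of equal number. For numbers 1, 2 and 3 the correlations were 0.35, 0.54 and 0.07 untreated and 0.47, 0.49 and 0.10 at 1 h. At 10 h they were 0.13, -0.20 and -0.02. A factor shared by arrays of equal number and a trait of the embryo cannot be told apart.

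A test of embryo differences held over the 3 conditions (limma F test) called 24 of 43 members in the knock-out, where 4.36% of all genes were called, and 0 in the wild type, where 3.71% were. At an unadjusted p under 0.05 the counts were 35 and 6, beside 21% and 14.3% of all genes, so the wild-type count was at the background. The wild-type test rests on the less certain 10 h numbers of embryos 2 and 3, so its 0 may miss differences held over the conditions. All 4 passenger complex genes and 5 of 6 kinetochore genes were called in the knock-out. Kif23 had the smallest p (adjusted p = 6.8e-04), with deviations of 0.17, -0.40 and 0.24 in embryos 1, 2 and 3. Kif11, the kinesin that pushes spindle poles apart, had the widest, at 0.40, -0.58 and 0.18 (adjusted p = 0.00449). Birc5 deviated by 0.31, -0.37 and 0.06 (adjusted p = 0.00378), and Top2a by 0.21, -0.37 and 0.16 (adjusted p = 0.0359). Mki67 and Cdk1 just missed the threshold (adjusted p = 0.0521 and 0.0535), while Foxm1 and Nuf2 were far from it (0.558 and 0.6). Without knock-out embryo 2 no member was called, without embryo 1 there were 8, and without the 10 h arrays 38. The shares of all genes called in these refits are not given here. Whether the embryo differences are larger in one genotype than in the other was not tested.

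Macrophage genes also differed between embryos, and their part in the mitotic differences was not tested. Of 17 macrophage and leukocyte markers, 16 were called for embryo in the knock-out and 16 in the wild type, beside 4.36% and 3.71% of all genes. Their mean log2 level in untreated knock-out embryos 1, 2 and 3 was 9.86, 8.11 and 8.56, lowest in the same embryo 2, and over all knock-out arrays it ran from 7.89 to 9.86. Their summed linear signal ran from 8553 to 28435 over the knock-out arrays and from 10415 to 41603 over the wild-type arrays. In untreated wild-type cells the mean log2 level was 10.54 in embryo 1 and 9.003 and 8.91 in embryos 2 and 3, and in that embryo 1 the mean of the mitotic members was 8.47 against 8.34 and 8.43. Csf1r, the receptor of macrophage growth factor, read 11.64, 9.65 and 10.41 in untreated knock-out cells and 12.27, 10.44 and 10.71 in the wild type. At 10 h 1 of the 17 markers, Mrc1, fell in the wild type and 0 in the knock-out (limma), beside 18.8% and 20.7% of all genes. Their medians were -0.08 and -0.12. The mean of 12 fibroblast markers was 11.54, 11.22 and 11.57 in untreated knock-out embryos. At 10 h 4 of the 12 fell in the wild type and 3 in the knock-out, the latter near the 20.7% of all genes. They were Pdgfra, S100a4 and Fap in both genotypes, and Lum in the wild type alone. The difference between 3′ and 5′ signals of the actin controls, a measure of RNA quality, was 0.15 to 0.19 in knock-out embryo 2, inside the range of 0.07 to 0.54 over all arrays.

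**Figure D4:**
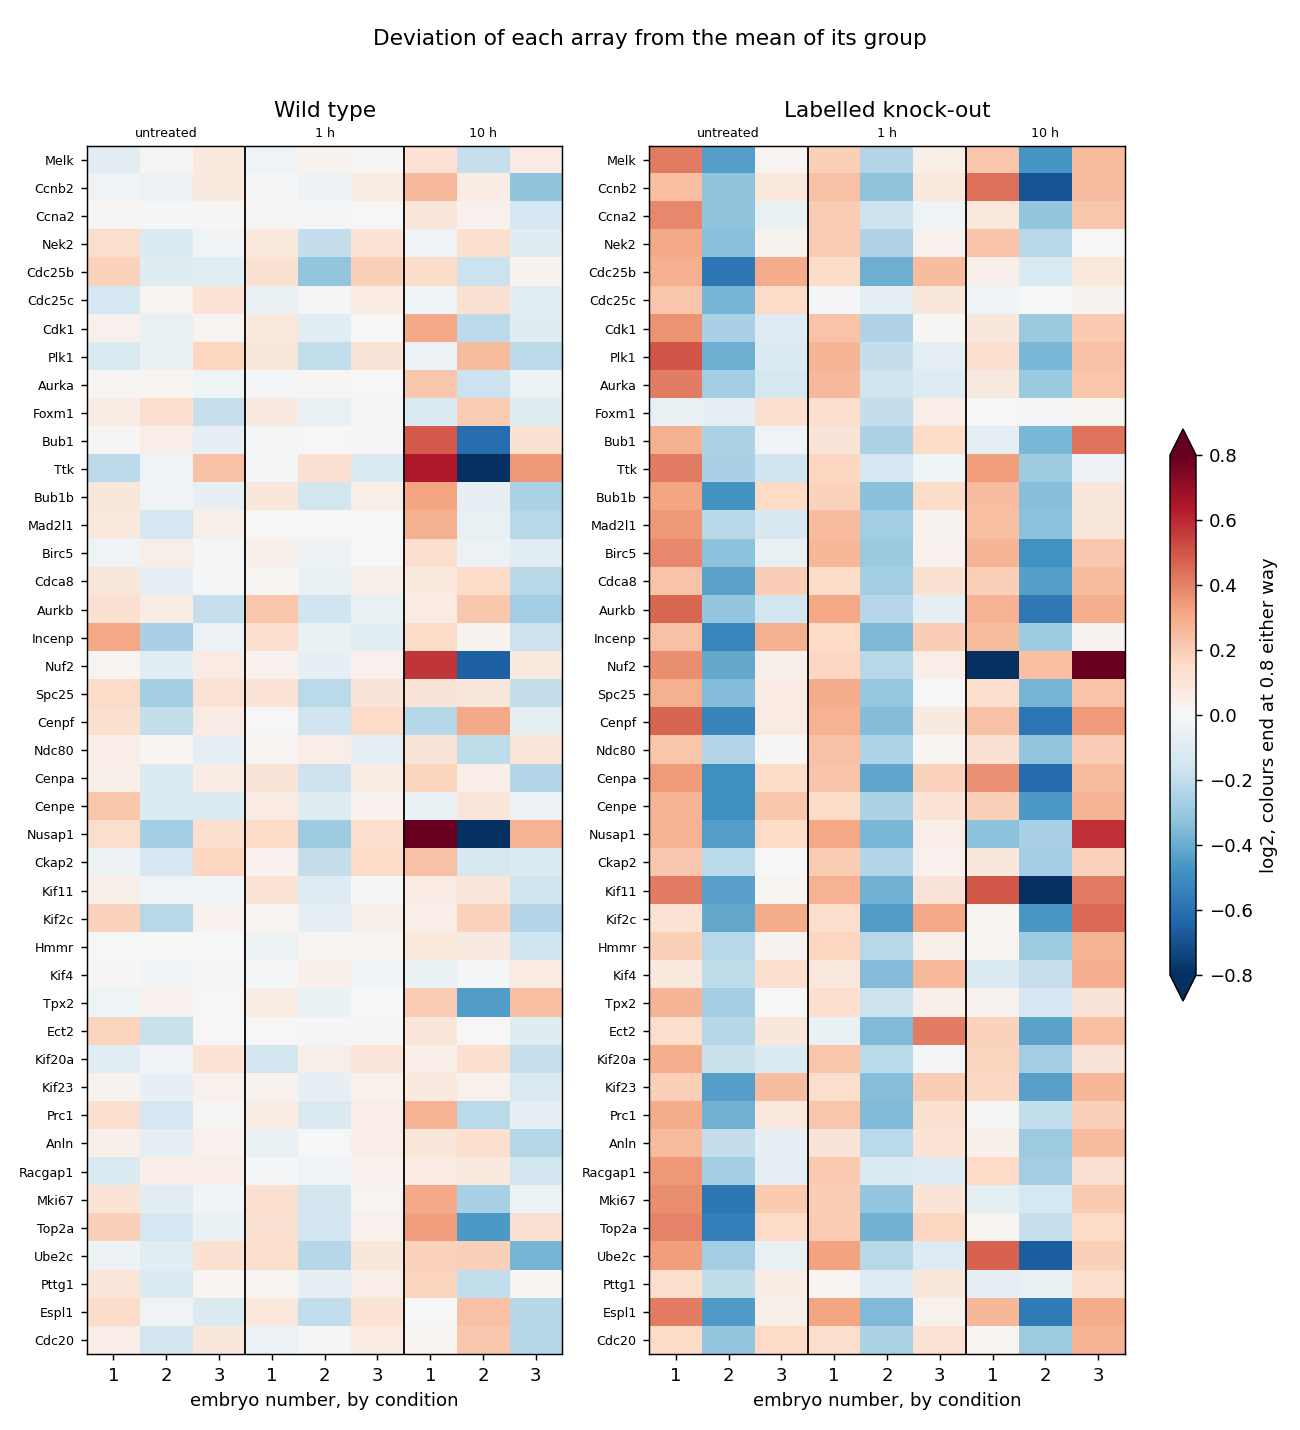
Deviation of each array from the mean of its group for the 43 members, in log2 units, with embryos 1, 2 and 3 in each condition as columns. In the knock-out panel the column of embryo 2 is below the group mean for nearly all members in all 3 conditions, while the wild-type panel is pale until 10 h, where Nusap1, Ttk, Nuf2 and Bub1 are low in embryo 2.

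In the 10 h wild-type culture of embryo 2, members lay at either end of their group. Nusap1, Ttk, Nuf2, Bub1 and Top2a were lowest there, at 5.10, 4.74, 5.08, 6.57 and 8.21, whereas Plk1, Cdc20, Foxm1 and Cenpf were highest there, Plk1 at 8.09 and Cdc20 at 10.29. These genes were singled out after their values were seen. In all, embryo 2 was lowest in 15 of the 43 members and highest in 16 at 10 h, beside 29.7% and 46% of all tested genes. Without that embryo the count of members that fell in the wild type was 29.

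Dimmer probe sets of the members were also lower at 10 h. Of 51 that were not the brightest of their gene, 40 could be tested over 29020 probe sets, and 22 fell in the wild type and 21 in the knock-out, where 13.4% and 14% of all probe sets fell. Signs were negative for 34 and 38 of the 40. In that wider fit 36 and 38 of the 43 brightest probe sets were called. Among those that fell in neither genotype, probe sets of Cenpf, Spc25 and Pttg1 had means of 4.61, 4.30 and 4.66 over the arrays, close to the floor, but those of Kif2c and Foxm1 had means of 6.40 and 6.65. A Cdc20 probe set with a mean of 7.15 was -0.21 in the wild type (adjusted p = 0.101) and fell by 0.28 in the knock-out.

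Other genes of G2 and mitosis outside the 44 fell as well. Of 78 tested, 47 fell and 1 rose in the wild type, with a median of -0.60, where 18.8% of all genes fell and 14.9% rose. In the knock-out 60 fell and 0 rose, with a median of -0.74, where 20.7% of all genes fell and 13.9% rose. Stmn1, which destabilises microtubules, fell by 1.34 ± 0.16 and 1.30 ± 0.16. Zwilch of the kinetochore, the kinase Mastl and the condensin subunit Ncapd2 fell by 1.30, 1.20 and 1.30 in the wild type and by 1.12, 1.02 and 1.54 in the knock-out. The 1 that rose was Bub3, a checkpoint protein, by 0.25 in the wild type, named after its value was seen.

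DNA replication genes were lower too. Of 44 S phase genes, 29 fell and 2 rose in the wild type, where 18.8% of all genes fell and 14.9% rose. In the knock-out 33 fell and 0 rose, where 20.7% of all genes fell and 13.9% rose. The medians of the S phase genes were -0.52 and -0.66. The clamp loader subunit Rfc5 fell by 1.02 and 1.19, the helicase subunit Mcm7 by 0.83 and 1.11, the polymerase Pola1 by 1.21 and 1.15, and Chaf1b of chromatin assembly by 0.74 and 0.84. The 2 that rose were Ung, by 0.80, and Orc1, by 0.34, named after their values were seen. Among the standing subunits of the anaphase promoting complex, 2 of 12 fell and 1 rose in the wild type and 4 fell in the knock-out, with medians of -0.11 and -0.18. The wild-type share that fell was near the 18.8% of all genes, and the knock-out count stands beside 20.7% of all genes. Anapc13 fell by 0.48 and 0.60, and Cdc16 rose by 0.30 in the wild type.

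Upstream regulators were mixed. Of 20 MuvB, E2F and pocket protein genes, 7 fell and 2 rose in the wild type and 5 fell and 3 rose in the knock-out, with medians of -0.13 and -0.15. Of all tested genes 18.8% fell and 14.9% rose in the wild type, and 20.7% fell and 13.9% rose in the knock-out, so the knock-out counts were near the background. Those that rose, seen after the fit, were Nfya and E2f8 in the wild type and E2f8, E2f4 and E2f3 in the knock-out. The E2F partner Tfdp2 fell by 0.65 and 0.98, and Rbl2, the pocket protein p130, by 0.94 and 0.90. Of 7 inhibitors of cyclin dependent kinases, 3 fell and 1 rose in the wild type and 3 fell in the knock-out. Cdkn2b, the inhibitor p15 known as a TGF-β target, rose by 0.47 ± 0.15 in the wild type (adjusted p = 0.0215) and was 0.39 ± 0.15 higher in the knock-out (adjusted p = 0.0537). Cdkn1b, the inhibitor p27, fell by 0.74 and 1.07. Of 6 genes of D cyclins and early G1, 2 fell and 1 rose in each genotype. Myc, the growth regulator, rose by 1.04 ± 0.22 and 1.14 ± 0.22 (adjusted p = 0.00147 and 6.74e-04), and the D cyclin Ccnd3 fell by 0.38 and 0.39. In the knock-out the embryo test called 24 of the 78 other G2 and M genes and 9 of the 44 S phase genes, where 4.36% of all genes were called. The wild-type counts were 1 and 0, where 3.71% of all genes were called, so they did not exceed the background. They rest on the less certain 10 h numbers of embryos 2 and 3.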

How the data were processed

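Total RNA of 18 cultures was hybridised to Affymetrix arrays, and the deposited values are log2 probe set summaries. The submitters' processing notes name RMA for them. Its version was not given in the sources used here. The method corrects background, normalizes arrays to each other and summarises probes, so array totals carry no depth and precision rests on 3 embryos a group. Of 45101 probe sets, 34958 carried a single symbol. Each gene was read from its brightest such probe set, and tested when above the 40th percentile of the array (4.16 to 4.25) on at least 3 arrays, which left 13679 genes. limma 3.58.1 in R 4.3.3 fitted 6 group means over the 18 arrays (12 residual degrees of freedom), with Benjamini-Hochberg adjustment over all tested genes at 0.05; errors of differences are standard errors. The embryo test added embryo within genotype (8 residual degrees of freedom). Scripts were tested on simulated data. Both TGF-β1 times were set against one set of untreated arrays and so share controls. Members and gene lists were chosen with earlier results of these data known. Promoter windows come from RefSeq (GRCm38.p6). Fully described are the 2 members of each role with the smallest wild-type p at 10 h, Mki67, Top2a, Cdk1, Foxm1 and the members of widest spread; from each other list of cell cycle genes, genes among the 4 with the smallest p.

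Arrays of a genotype with equal embryo numbers came from 1 embryo, according to the labels. Deviations from the group mean correlated at 0.59 to 0.76 between untreated and 1 h arrays of an embryo. Embryo was tried as a replicate block; other alternatives were the filter, the mean of all probe sets, other scaling, the groups compared alone, another variance prior and leaving out each embryo.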

Additional observations from a re-analysis of the deposited data

How the results depend on the processing

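The alternatives covered the replicate block, the filter, the probe sets, the scaling, the variance prior, the arrays fitted and each embryo left out, and no member changed sign at 10 h in any of them. With embryo as a fixed replicate block the paired fit called 43 members in the wild type and 42 in the knock-out at 10 h, and as a random block 42 and 42; neither block, nor the embryo number as a block between genotypes, moved any other count by more than 1.5 times. Leaving out each embryo gave 23 to 42 falling members in the wild type at 10 h against untreated cells, 24 to 40 against 1 h, and 0 to 30 members with an embryo effect in the knock-out. Without the 10 h arrays that effect was called in 2 members of the wild type and 38 of the knock-out. Shares of all genes called under the alternatives are not given here. With the mean of all probe sets of a gene the median of the wild-type change from 1 h to 10 h was -0.65. Of the 38 members called in the wild type, 21 kept their call in all 14 alternatives, and of the 39 in the knock-out 28 did. Counts of 0 at 1 h and between genotypes were 0 under every alternative run. A fit of all member probe sets was added after the data were seen.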
